A study of Mus musculus with 60 samples.

Results

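Kidneys collected 8 h after lights on (zeitgeber time 8, ZT8) were compared between cKOt and control mice. The members are the 10 samples that the labels place at ZT08, 5 of each genotype, of 60 samples in all (2 genotypes at 6 time points, 4 h apart). cKOt mice carried Bmal1lox/lox, Pax8-rtTA and LC1-Cre, so that doxycycline (DOX) induces Cre in cells that use the Pax8 promoter, which in the adult kidney is active along the tubule. Controls were Bmal1lox/lox littermates. All 10 mice were males on the C57BL/6J background, held in 12 h light and 12 h dark with free access to chow. Both genotypes drank DOX at 2 mg/ml with sucrose at 20 mg/ml for 2 weeks from 8 weeks of age, and kidneys were taken 4 weeks after DOX ended. Each sample is 1 mouse. The labels name the tissue as renal tubule, whereas the methods describe pieces of whole kidney.

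BMAL1, the protein of Arntl, pairs with CLOCK or NPAS2 and activates genes through E-boxes in their promoters. Among its targets are the repressors of the same loop (Per, Cry), the nuclear receptors NR1D1 and NR1D2, which repress Arntl through ROR elements (ROREs), and the PAR bZIP factors DBP, TEF and HLF, which act through D-boxes that the repressor NFIL3 also binds. ZT8 lies in the rest phase of mice. In the renal tubule the clock is known to bear on transport of salt and water and on metabolism.

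Depth was alike in the 10 mice, at 17911086 to 20906706 reads on genes and 21173 to 21689 genes with reads. The 10 highest genes took 15.1% to 16.1% of these reads in controls and 12.9% to 15.0% in cKOt mice. The scaling factors (TMM, trimmed mean of M values) did not overlap either, at 0.964 to 1.00 and 1.01 to 1.05, and the part of these gaps in the results was not tested. cKOt replicates 2 and 4 stood apart. Their root mean square log2 distance from the other cKOt mice of ZT8 was 0.332 and 0.336, against 0.235 to 0.272 for the other 8 mice within their own groups. cKOt replicate 2 was nearest to the cKOt mice of ZT12, and control replicate 5 and cKOt replicate 3 were nearest to those of ZT4. None of 20 pairs of replicates was alike within sampling noise (ratio to Poisson noise of 6.10 or more).

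Proximal tubule markers were abundant, with a summed level of 12620 to 13860 CPM in controls and 12710 to 16800 CPM in cKOt mice (CPM, read counts scaled to TMM-corrected library size). Markers of podocytes (344 to 410 CPM in controls and 301 to 395 CPM in cKOt mice) and endothelium (441 to 486 CPM in controls and 386 to 462 CPM in cKOt mice) were present too, so the samples held more than tubule. None of the tested markers of podocyte (6), endothelium (6), fibroblast and pericyte (6), distal convoluted tubule (5), T cell (5), adipocyte (6), urothelium (5), red blood cell (2) or adrenal cortex (1) passed the edgeR test for a difference between genotypes. Of these 42 genes, 11 had an unadjusted p under 0.05, DESeq2 called 4 and limma-trend 1. All tested markers were nonetheless lower for fibroblast and pericyte (log2 -0.48 to -0.20), endothelium (-0.14 to -0.041) and T cell (-0.85 to -0.17). Those of red blood cell (-1.12 to -0.50) and adrenal cortex (-0.30) were lower as well. Markers of podocyte, distal convoluted tubule, adipocyte and urothelium went both ways. Tubule segments had calls both ways, with 3 higher and 3 lower of 10 for proximal tubule, 1 and 2 of 6 for thick ascending limb, 0 and 1 of 6 for principal cells, 1 and 2 of 6 for intercalated cells, and 2 and 1 of 6 for papilla and thin limb. Among all tested genes 10.6% were higher and 9.29% lower. In bulk tissue, fewer cells of a type and less RNA per cell cannot be told apart.

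Of 15546 tested genes, 3095 differed between genotypes at ZT8 at an edgeR adjusted p under 0.05, or 19.9%. In cKOt mice 1650 genes (10.6%) were higher and 1445 (9.29%) lower. This balance turned with the scaling: DESeq2 size factors in place of TMM gave 1427 higher and 1677 lower (46.0% higher, against 53.3%), and the DESeq2 Wald test 1438 and 1725. Most of the 3095 differences were small: 2278 (73.6%) were under 1.5-fold, 185 were over 2-fold higher and 195 over 2-fold lower. The median log2 difference over all tested genes was 0.014. Groups did not overlap in CPM for 1475 genes (9.49%), 1362 of them among the 3095. With cKOt replicates 2 and 4 left out, a choice made after seeing the data, 2321 genes differed, and the 2132 shared with the 3095 all kept their sign. Both fits drew on the remaining mice, so the kept signs are no separate check. Among the 3 pairs of a control and a cKOt mouse that shared a library batch, 2456 of the 3095 (79.4%) had the same sign in all 3, against 34.8% of all tested genes. The calls came from these mice too, so the higher share is built in and is no separate check on batch.

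The targeted gene, Arntl (chr7:113207465-113314126, GRCm38), was higher in cKOt kidneys. Control replicates 1 to 5 had 4.17, 2.59, 2.12, 2.36 and 2.40 CPM, and cKOt replicates 1 to 5 had 15.3, 19.0, 18.7, 19.2 and 20.6 CPM. The groups did not overlap, and the fitted difference was 2.78 ± 0.26 on the log2 scale (SE, n = 5 and 5, edgeR adjusted p = 7.03e-13), or 6.87-fold. The counts cover the whole gene, including exons outside the floxed segment, so they do not check the deletion. In controls, Arntl was lowest at ZT8 and ZT12 (means of 2.73 and 2.77 CPM, against 48.4 CPM at ZT0), whereas cKOt means lay between 17.4 and 24.4 CPM at all 6 time points.

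Npas2 and Clock, activators of the loop, rose as well. Npas2, the partner of BMAL1 that can stand in for CLOCK, had 1.39, 0.811, 1.43, 0.735 and 0.628 CPM in control replicates 1 to 5 and 56.0, 48.2, 38.8, 56.0 and 56.1 CPM in the cKOt mice. All cKOt mice lay far above all controls, by 49.1-fold in the fit (log2 5.62 ± 0.29, edgeR adjusted p = 3.11e-22), with 11 to 27 reads per control mouse. Clock itself rose 1.48-fold without overlap (64.3 to 94.6 CPM in controls and 96.3 to 132 CPM in cKOt mice). Rora, a nuclear receptor that activates through ROREs, had 93.1 ± 8.81 and 86.4 ± 7.60 CPM (mean ± SD, n = 5, as in all such pairs) and did not pass (edgeR adjusted p = 0.675).

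Of 10 repressors of the loop, 6 fell and 2 rose in cKOt kidneys. Among all tested genes 9.29% were lower and 10.6% higher. Ciart, a repressor of CLOCK-BMAL1, had 13.2, 15.5, 28.6, 18.4 and 18.4 CPM in controls and 2.21, 1.91, 0.699, 1.42 and 0.840 CPM in cKOt mice. Every cKOt mouse lay below every control, and the fitted ratio was 12.8-fold (log2 -3.67 ± 0.30, edgeR adjusted p = 1.27e-14). Nr1d2 fell 4.38-fold, from 248 ± 6.72 to 54.8 ± 5.20 CPM, and its paralog Nr1d1 2.26-fold, from 50.1 ± 8.84 to 23.4 ± 5.43 CPM. Among the period genes, Per3 fell 3.82-fold (60.8 to 72.2 CPM in controls and 13.6 to 21.3 CPM in cKOt mice) and Per2 1.51-fold (54.9 ± 3.31 to 37.3 ± 2.43 CPM). Per1 overlapped between groups (25.9 to 47.2 CPM in controls and 13.2 to 40.8 CPM in cKOt mice) at a log2 difference of -0.54 ± 0.21 (adjusted p = 0.0601). It passed in limma-trend (-0.61, adjusted p = 0.0389) and without cKOt replicate 5, the highest cKOt mouse (-0.85, edgeR adjusted p = 0.00166). The cryptochromes went the other way, Cry1 from 6.43 ± 0.999 to 27.1 ± 1.68 CPM (4.21-fold) and Cry2, with overlap, from 34.9 ± 2.51 to 45.5 ± 7.13 CPM (1.25-fold). Bhlhe40, a repressor at E-boxes, was at the threshold (log2 -0.40 ± 0.15, adjusted p = 0.0498). It missed the threshold when any 1 of cKOt replicates 1 to 5 or of control replicates 1, 2 or 4 was left out (-0.42 to -0.35). Its paralog Bhlhe41 did not pass (-0.49 ± 0.21, adjusted p = 0.0995).

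Of the factors that share the D-box, the activators Dbp and Tef fell and the repressor Nfil3 rose. Dbp had 57.1, 56.7, 66.8, 68.0 and 85.4 CPM in controls and 18.5, 11.1, 12.9, 20.0 and 12.0 CPM in cKOt mice (4.75-fold, log2 -2.25 ± 0.18, edgeR adjusted p = 3.53e-15). Tef fell 1.91-fold from 500.2 ± 37.2 to 263 ± 23.3 CPM. Nfil3 had 1.39, 3.03, 4.34, 3.36 and 1.83 CPM in controls and 24.1, 24.0, 16.4, 22.1 and 25.3 CPM in cKOt mice (7.80-fold, log2 2.96 ± 0.35). For these 3 genes the groups did not overlap. Hlf, the other activator, had 158 ± 14.6 and 144 ± 9.64 CPM and did not pass (adjusted p = 0.27).

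**Figure D1:**
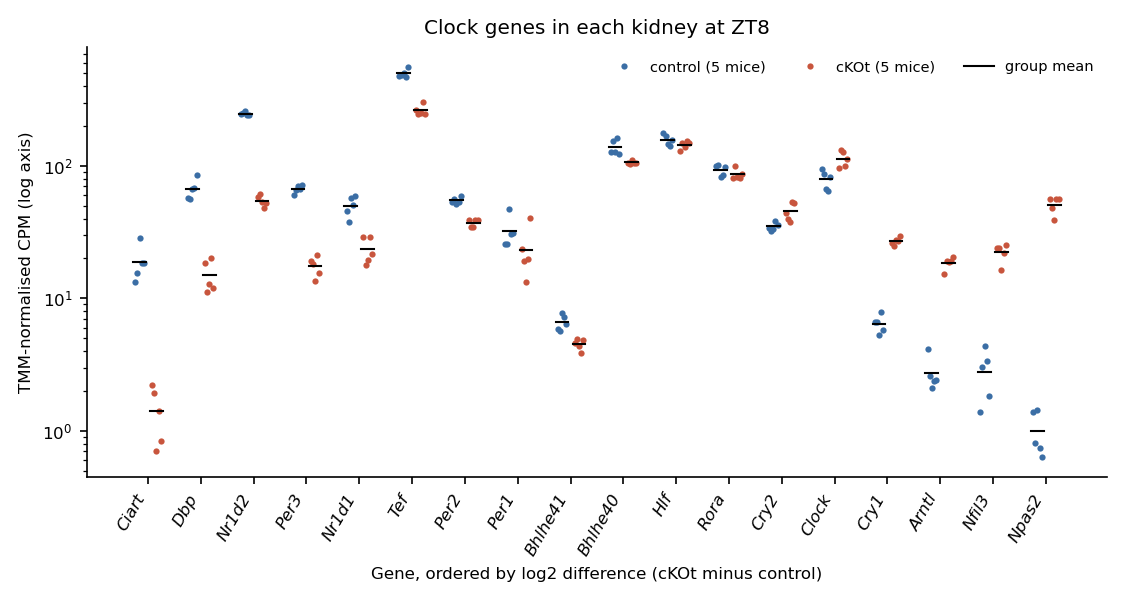
TMM-normalised CPM on a log axis of 18 clock genes in each kidney at ZT8, ordered by log2 difference. Each point is 1 mouse (blue, control; red, cKOt; 5 each) and black lines are group means. Ciart, Dbp, Nr1d2 and Per3 lie lower, and Cry1, Arntl, Nfil3 and Npas2 higher, in every cKOt mouse than in any control.

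Some promoters are printed because they hold the elements through which these factors act. RefSeq promoters on GRCm38.p6, from 250 bases before to 50 after each start, were searched on both strands for the E-box CACGTG, the D-box TTATGTAA or TTATGCAA, and the RORE. Of 32851 promoters in the table, 7.15% held the E-box, 1.66% the D-box and 0.384% the RORE. Of 20 clock genes, 16 had a promoter there, and 5 of these held an E-box, 2 a D-box and 1 a RORE. A comparison of the gene sets is void, since only 76.1% of the higher and 74.3% of the lower genes had a promoter in the table, under the 80% needed. A match describes letters only, and positions are given for the first base of each match.

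The Arntl promoter (chr7:113207261-113207560, plus strand) has a RORE, in capitals, 26 bases after the start.
Arntl: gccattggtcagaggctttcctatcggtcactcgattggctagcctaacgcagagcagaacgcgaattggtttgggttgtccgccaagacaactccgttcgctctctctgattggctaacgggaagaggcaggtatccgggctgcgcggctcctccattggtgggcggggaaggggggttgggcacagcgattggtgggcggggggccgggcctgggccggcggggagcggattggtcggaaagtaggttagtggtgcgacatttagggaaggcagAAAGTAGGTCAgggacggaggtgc

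The Ciart promoter (chr3:95882179-95882478, minus strand) has E-boxes, in capitals, 116, 58 and 44 bases before the start, and that of Tef (chr15:81802423-81802722, plus strand) has 1 at 127 bases before it. Both genes fell. That of Cry1, which rose, also has 1 (chr10:85185005-85185304, minus strand), 60 bases before the start. Of 13 named genes with an E-box, 8 fell, 3 rose (Cry1, Slc16a1 and Aqp8) and 2 did not pass. Many genes were named because they passed (114 of 126 tested), so this split is no result about the motif.
Ciart: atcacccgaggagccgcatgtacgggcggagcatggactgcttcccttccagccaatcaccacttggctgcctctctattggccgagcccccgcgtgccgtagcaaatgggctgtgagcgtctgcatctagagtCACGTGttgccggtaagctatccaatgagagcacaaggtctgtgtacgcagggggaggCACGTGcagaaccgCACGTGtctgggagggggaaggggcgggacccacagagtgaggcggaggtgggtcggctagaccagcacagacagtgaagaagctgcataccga
Tef: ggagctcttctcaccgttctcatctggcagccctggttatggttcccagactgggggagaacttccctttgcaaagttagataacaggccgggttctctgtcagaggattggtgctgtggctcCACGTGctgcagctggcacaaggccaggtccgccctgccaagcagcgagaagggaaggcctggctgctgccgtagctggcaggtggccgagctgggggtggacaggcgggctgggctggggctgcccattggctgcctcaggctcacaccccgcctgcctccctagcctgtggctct
Cry1: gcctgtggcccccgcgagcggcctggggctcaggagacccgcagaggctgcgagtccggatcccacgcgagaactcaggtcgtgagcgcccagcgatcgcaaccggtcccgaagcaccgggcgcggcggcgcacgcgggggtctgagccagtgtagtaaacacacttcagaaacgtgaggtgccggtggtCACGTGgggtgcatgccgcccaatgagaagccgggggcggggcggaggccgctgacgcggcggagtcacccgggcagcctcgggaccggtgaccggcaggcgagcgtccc

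The Per3 promoter (chr4:151044616-151044915, minus strand) has D-boxes, in capitals, 205 and 158 bases before the start. Those of Coq10b (chr1:55052520-55052819, plus strand) and Cyp2a5 (chr7:26835089-26835388, plus strand) have 1 each, 162 and 71 bases before the start, and both genes fell, as given further on. The Coq10b promoter also holds an E-box, left in lower case. Of 8 named genes with a D-box, 6 fell, 1 rose (Prlr) and 1 did not pass. The same limit holds here, and a link of the D-box to direction was not tested.
Per3: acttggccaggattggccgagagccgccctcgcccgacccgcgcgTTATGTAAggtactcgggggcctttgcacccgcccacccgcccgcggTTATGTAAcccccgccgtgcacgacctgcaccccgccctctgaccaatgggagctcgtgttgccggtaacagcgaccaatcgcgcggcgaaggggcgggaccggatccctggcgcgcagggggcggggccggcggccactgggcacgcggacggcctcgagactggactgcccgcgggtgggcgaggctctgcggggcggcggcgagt
Coq10b: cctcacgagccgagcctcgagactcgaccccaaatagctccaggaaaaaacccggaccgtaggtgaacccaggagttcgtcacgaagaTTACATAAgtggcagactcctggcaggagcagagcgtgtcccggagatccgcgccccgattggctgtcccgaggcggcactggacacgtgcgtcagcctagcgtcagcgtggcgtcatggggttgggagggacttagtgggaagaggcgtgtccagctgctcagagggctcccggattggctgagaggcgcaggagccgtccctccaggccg
Cyp2a5: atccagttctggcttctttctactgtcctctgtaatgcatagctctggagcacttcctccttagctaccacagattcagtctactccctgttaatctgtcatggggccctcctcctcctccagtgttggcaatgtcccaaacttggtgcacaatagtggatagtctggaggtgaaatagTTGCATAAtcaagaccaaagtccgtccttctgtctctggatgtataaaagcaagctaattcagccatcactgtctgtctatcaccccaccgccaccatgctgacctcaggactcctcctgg

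Whether ZT8 differed from the rest of the day was tested by setting its difference against the mean difference at ZT0, ZT4, ZT12, ZT16 and ZT20 (the departure). It passed for 60 genes (0.386%), positive for 45 (0.289%) and negative for 15 (0.0965%), and 1236 genes had an unadjusted p under 0.05. All 60 also differed at ZT8 itself and did so by more than the mean of the other time points, and for 42 of them ZT8 was the largest of the 6. Because the test used a mean, a departure can be shared with a neighbouring time point. Without control replicate 5 the departure passed for 39 genes, 38 of them among the 60.

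Among the genes that passed, the most positive departures were those of Npas2 (2.60 ± 0.35 on the log2 scale, edgeR adjusted p = 2.25e-06) and Arntl (2.48 ± 0.28, edgeR adjusted p = 2.65e-08). The log2 difference of Arntl was 2.78 at ZT8 and 2.63 at ZT12, but -0.99 at ZT0 and -0.96 at ZT20. That of Npas2 was positive at all 6 time points, from 1.26 at ZT0 to 5.67 at ZT12. Nfil3 departed by 1.82 ± 0.39, with 0.032 at ZT0 and 2.53 at ZT4, while its cKOt means stayed at 17.5 to 22.9 CPM. Cry1 (0.61 ± 0.12) departed too, though its difference at ZT4 (3.33) was larger in value than at ZT8 (2.07).

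Dbp had the most negative departure among the genes that passed (-0.96 ± 0.21, edgeR adjusted p = 0.00911), with log2 differences of -3.29 at ZT4, -2.25 at ZT8 and 0.14 at ZT20. Its mean was highest at ZT8 in both genotypes, at 66.8 CPM in controls and 14.9 CPM in cKOt mice. Per3 (-0.72 ± 0.16) and Tef (-0.44 ± 0.10) had negative departures too. Their means were highest at ZT12, at 74.2 and 544.5 CPM in controls and 24.3 and 281.6 CPM in cKOt mice. The log2 difference of Per3 was -2.10 at ZT4 and -1.93 at ZT8. That of Tef was -0.94 at ZT8 and -0.94 at ZT12. Ciart, at -1.26 ± 0.37, did not pass this test (edgeR adjusted p = 0.158).

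**Figure D2:**
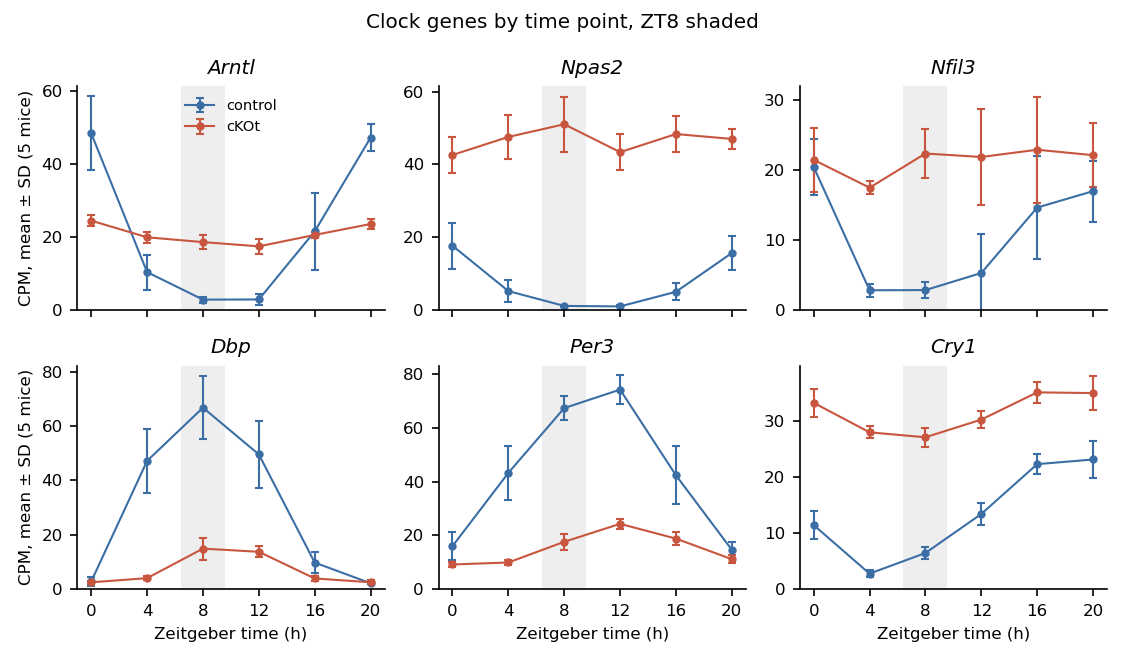
CPM (mean ± SD, 5 mice per point) of 6 clock genes against zeitgeber time in hours, control in blue and cKOt in red, with ZT8 shaded. At ZT8 control Arntl, Npas2 and Nfil3 are near their lowest and control Dbp is at its highest mean, while the cKOt means of Arntl stay between 17.4 and 24.4 CPM.

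In the lists of fuel metabolism the departure passed for 1 of 22 PPAR target genes (Pdk4) and 2 of 13 in fatty acid uptake and activation (Acsl1, positive, and Fabp3, negative). It passed for none of 63 genes of mitochondrial β-oxidation (24), ketone and TCA cycle enzymes (19) and gluconeogenesis and ammoniagenesis (20) in edgeR, DESeq2 or limma-trend, with 3 at an unadjusted edgeR p under 0.05. Among all tested genes 0.386% passed in edgeR, so a count of 0 in 63 says little. Slc16a1, a transporter of lactate and ketone bodies, had 27.4 to 43.0 CPM in controls and 123 to 193 CPM in cKOt mice. The groups did not overlap (4.51-fold), and its departure was 1.28 ± 0.17 (edgeR adjusted p = 3.17e-06). Its log2 difference was 2.17 at ZT8 and 2.10 at ZT12. Pdk4, the kinase that shuts off pyruvate dehydrogenase, rose 2.37-fold but with overlap (12.6 to 43.7 CPM in controls and 21.8 to 96.2 CPM in cKOt mice). Its departure was 1.58 ± 0.34, with log2 differences of -1.03 at ZT0 and 1.25 at ZT8, and within batch 3 it was lower in the cKOt mouse (log2 -0.57). Acsl1, which activates long-chain fatty acids, rose 1.93-fold (216 ± 4.45 to 414 ± 38.2 CPM, departure 0.63 ± 0.10), with log2 differences of 0.95 at ZT8 and 0.98 at ZT12. The vasopressin receptor Avpr1a rose 2.96-fold (4.90 ± 0.413 to 14.6 ± 0.969 CPM, departure 0.78 ± 0.15), with 1.565 at ZT8 and 1.529 at ZT12. Gm30162, a predicted gene, rose from 0.647 ± 0.342 to 5.70 ± 1.61 CPM (departure 1.44 ± 0.31).

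On the negative side, Coq10b, a coenzyme Q binding protein, fell 2.79-fold (72.0 to 87.6 CPM in controls and 20.0 to 31.4 CPM in cKOt mice), with a departure of -0.69 ± 0.13. Alas1, the rate-limiting enzyme of heme synthesis, fell 2.48-fold from 213 ± 24.3 to 89.1 ± 13.1 CPM (departure -0.67 ± 0.15). Zfp57, a zinc finger protein of imprinting control, fell at ZT8 with overlap (log2 -0.72 ± 0.17) at a mean difference of 0.036 over the other time points. Nat8f4, of an acetyltransferase family, had a like pattern (-0.59 ± 0.11 beside 0.086), without overlap.

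**Figure D3:**
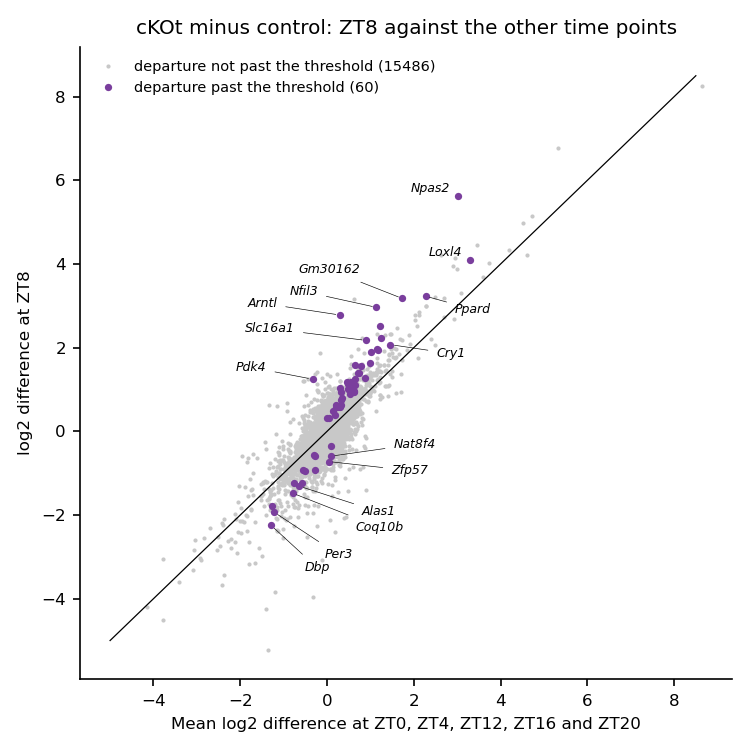
Log2 difference at ZT8 (y) against the mean log2 difference at the other 5 time points (x), cKOt minus control, 1 point per gene. The line marks equal values and the 60 genes past the test of the departure are purple. Npas2, Arntl, Nfil3, Slc16a1 and Pdk4 lie above the line, and Dbp, Per3, Coq10b and Alas1 below it.

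Most genes that differed at ZT8 had a difference of the same sign around the clock: 2372 of the 3095 (76.6%) at all 5 other time points, against 35.6% of all tested genes, and 3 had the opposite sign at all 5. The 10 largest decreases without overlap, at a mean of at least 1 CPM, were Synpr, Cyp2a5, Ciart, Angptl7, Gm45909, C4a, Alb, Anks1b, Cyp4a12a and Cyp2a4, with log2 differences of -4.50 to -2.83. None of these 10 passed the test of the departure, which 0.386% of all tested genes passed. Cyp2a5, a cytochrome P450 that hydroxylates coumarin and nicotine, had 92.0, 100.3, 114, 129.6 and 155 CPM in controls and 6.48, 5.00, 4.74, 8.67 and 9.09 CPM in cKOt mice. All cKOt mice were far below all controls (18.4-fold, log2 -4.20 ± 0.29, edgeR adjusted p = 6.24e-17). Its close paralog Cyp2a4, a steroid hydroxylase, fell 7.11-fold from 511 ± 54.0 to 71.8 ± 9.63 CPM, and the split of reads between these near-identical genes is uncertain. Synpr, a synaptic vesicle protein, varied widely among controls (10.4 to 55.5 CPM in controls and 0.266 to 2.70 CPM in cKOt mice), with no overlap. Angptl7, a secreted angiopoietin-like protein, fell 12.1-fold (18.5 ± 3.84 to 1.66 ± 0.905 CPM). C4a, a complement component so like C4b that its count is uncertain, fell 9.89-fold (6.40 to 12.4 CPM in controls and 0.711 to 1.19 CPM in cKOt mice). Anks1b, an ankyrin repeat protein, fell from 5.52 ± 1.25 to 0.655 ± 0.393 CPM and Gm45909 from 3.34 ± 0.658 to 0.291 ± 0.286 CPM.

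Alb, the plasma protein albumin, fell 8.46-fold (6.63 to 10.4 CPM in controls and 0.772 to 1.38 CPM in cKOt mice, from 116 to 198 and 15 to 26 reads). Of 10 transcripts secreted mainly by the liver, a list added after seeing the data, 8 were tested. Of these, 2 fell (Alb and Hrg), 2 rose (Apoc3 and Serpina1c) and 4 did not pass. That is 50.0%, beside 19.9% of all tested genes. The summed level of the 10 was 154 to 219.9 CPM in controls and 112 to 193 CPM in cKOt mice. Ahsg, Mup3 and Serpina3k were at 0 in at least 1 mouse. The part of these liver transcripts in the result was not tested.

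The 10 largest increases were Vmn1r32, Npas2, Fhad1, Slc7a12, Aqp8, A530001N23Rik, Loxl4, Bhmt, Fgg and Hao2. Vmn1r32, annotated as a vomeronasal receptor, had 1 read in all 5 controls together and 503 reads in the 5 cKOt mice (84 to 118 each). That is a ratio of 467, with an exact 95% interval of 83.5 to 18490 that covers counting error only. Hao2, a peroxisomal hydroxy acid oxidase, rose 9.85-fold (106 to 156 CPM in controls and 929 to 1409 CPM in cKOt mice). Slc7a12, an amino acid transporter with female-biased expression in mouse kidney, rose 31.4-fold (0.848 to 3.51 CPM in controls and 19.4 to 72.6 CPM in cKOt mice). Aqp8, a water channel, rose 22.1-fold (0.512 ± 0.242 to 11.4 ± 3.80 CPM), and Bhmt, which remethylates homocysteine with betaine, 14.8-fold (1.20 ± 0.320 to 17.7 ± 6.58 CPM). Loxl4, a lysyl oxidase of the extracellular matrix, rose 17.1-fold (2.41 ± 0.716 to 41.7 ± 8.75 CPM) and, with Npas2, was among the 2 of these 10 that passed the test of the departure (0.79 ± 0.19). Fhad1 rose from 0.130 ± 0.0865 to 5.06 ± 1.48 CPM and A530001N23Rik from 0.208 ± 0.0722 to 3.74 ± 0.811 CPM.

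All 3 fibrinogen chains rose without overlap, Fgg from 5.43 ± 0.874 to 68.1 ± 26.6 CPM, Fga from 17.1 ± 3.39 to 134 ± 32.1 CPM and Fgb from 0.645 ± 0.109 to 5.18 ± 0.951 CPM. Fga and Fgb were picked after their values were seen, as were the other marker genes named with values. The 3 chains are the higher ones of 12 tested markers of tubular injury, whose sum was 707 to 896 CPM in controls and 919 to 1126 CPM in cKOt mice. In that sum the 3 chains made up 17.9 to 27.7 CPM in controls and 147 to 299.5 CPM in cKOt mice. The median log2 difference of the 12 markers was 0.077. Havcr1 (KIM-1), a marker of injured proximal tubule, was the 1 lower (2.27 ± 1.01 to 1.03 ± 0.318 CPM, log2 -1.11 ± 0.41, adjusted p = 0.0453). It missed the threshold without any 1 of cKOt replicates 1 to 4 or control replicates 1 to 3 (-1.16 to -0.81), the smallest being without control replicate 2, the highest mouse. The other 8 did not pass, so 33.3% of the 12 differed, beside 19.9% of all tested genes.

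**Figure D4:**
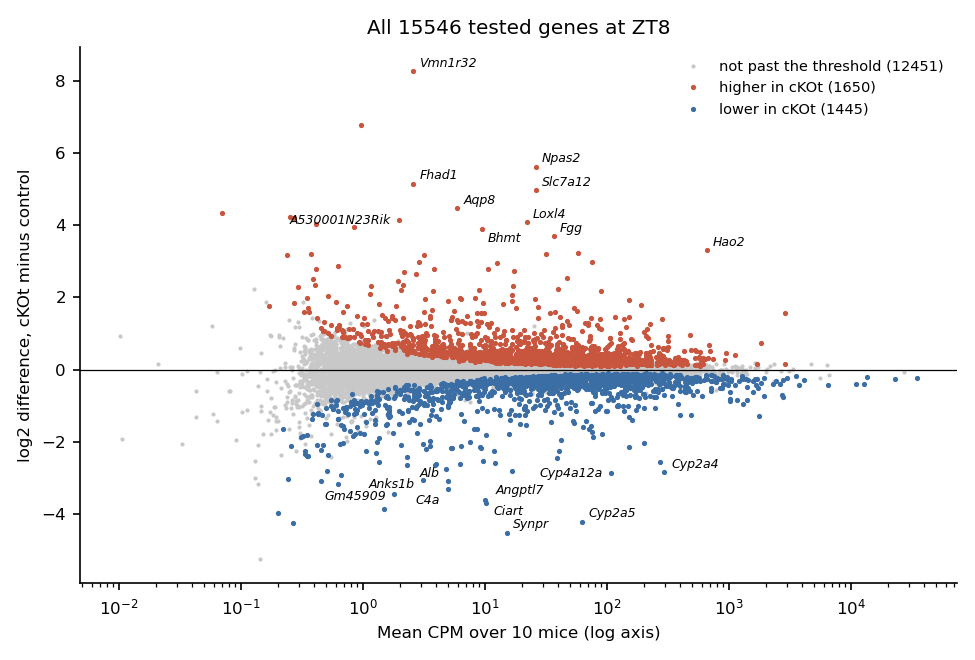
Log2 difference between cKOt and control kidneys at ZT8 (y) against mean CPM over the 10 mice (x, log axis) for all 15546 tested genes. Red and blue mark the 1650 higher and 1445 lower genes, and the 10 largest changes in each direction at a mean of at least 1 CPM and without overlap are named.

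Of 9 tested genes of NAD salvage, 4 fell (Nampt, Nmrk1, Nmnat1 and Nadk) and 1 rose (Nt5e). That is 55.6%, beside 19.9% of all tested genes. Nampt, the rate-limiting enzyme of salvage from nicotinamide, had 242, 252, 258, 255 and 249 CPM in controls and 154, 184, 161, 119.5 and 154 CPM in cKOt mice. The groups did not overlap (1.58-fold, log2 -0.66 ± 0.055, edgeR adjusted p = 4.16e-14), and cKOt replicate 4 was lowest. Nmrk1, the nicotinamide riboside kinase, fell 1.40-fold (122 ± 11.0 to 85.6 ± 15.7 CPM), with cKOt replicate 4 again lowest at 60.0 CPM. Nt5e (CD73), an ectonucleotidase that also cleaves nicotinamide mononucleotide, rose 2.17-fold (112 to 168 CPM in controls and 252 to 329 CPM in cKOt mice).

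In the kynurenine and Preiss-Handler routes to NAD, 4 of 12 tested genes rose and 2 fell (50.0%). Kmo, the kynurenine monooxygenase, rose 1.38-fold without overlap (167 to 187 CPM in controls and 231 to 253 CPM in cKOt mice), and Aadat, a kynurenine aminotransferase, 1.47-fold (433 ± 51.2 to 618 ± 66.7 CPM). Afmid, the formamidase, was lower (log2 -0.43 ± 0.11) and Qprt, which acts on quinolinate, higher (0.21 ± 0.057), both with overlap. Both missed the threshold in a fit of the 10 ZT8 mice alone (-0.35, edgeR adjusted p = 0.0824, and 0.28, edgeR adjusted p = 0.12). Haao (0.039 ± 0.073), Naprt (0.079 ± 0.062), Nmnat3 (0.13 ± 0.071) and Pnp (0.13 ± 0.062) did not pass, nor did Nnt, Sirt3 or the organic cation transporter Slc22a2. Of 15 genes that consume NAD, 2 rose and 2 fell (26.7%, beside 19.9% of all genes).

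In fatty acid uptake and activation 6 of 13 tested genes fell and 3 rose (69.2%). In mitochondrial β-oxidation 10 of 24 fell and 3 rose (54.2%), at a median log2 difference of -0.10. Among all tested genes 19.9% differed. Cd36, the fatty acid translocase, fell 1.41-fold (867 to 1151 CPM in controls and 627 to 829 CPM in cKOt mice). The fatty acid transporter Slc27a2 fell 1.21-fold (4507 ± 204 to 3695 ± 146 CPM), and the heart-type binding protein Fabp3 1.91-fold (44.1 ± 3.49 to 23.6 ± 1.45 CPM, departure -0.37 ± 0.088). Its brain-type relative Fabp7 rose 2.31-fold (5.42 ± 1.22 to 12.2 ± 2.93 CPM).

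The carnitine shuttle brings fatty acids into mitochondria, and its members Cpt1a (log2 -0.29 ± 0.069), Slc25a20 (-0.50 ± 0.11) and Cpt2 (-0.44 ± 0.091) fell without overlap. Acadl, a long-chain acyl-CoA dehydrogenase, fell 1.66-fold (382 to 446 CPM in controls and 218 to 311 CPM in cKOt mice, log2 -0.73 ± 0.063, edgeR adjusted p = 8.76e-14). Crat (-0.31 ± 0.064) and Acads (-0.32 ± 0.069), for shorter acyl groups, were lower with overlap. Neither passed without the factors of unwanted variation (-0.25 and -0.15). Acadvl, for very long chains (-0.10 ± 0.058), and Acadm, for medium chains, did not pass. Sdha, of complex II, did not pass (0.11 ± 0.044, adjusted p = 0.0667), and passed without cKOt replicate 3 (0.14, edgeR adjusted p = 0.0307).

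Carnitine synthesis and transport held 4 lower and 1 higher of 8 tested genes (62.5%, beside 19.9% of all tested genes). Slc22a5 (OCTN2), the carnitine transporter, had 333, 301, 295, 322 and 338 CPM in controls and 195, 206, 173, 169.6 and 199 CPM in cKOt mice, without overlap (1.67-fold, log2 -0.74 ± 0.10, edgeR adjusted p = 3.59e-08). Aldh9a1, of carnitine synthesis, fell 1.49-fold (571 ± 31.7 to 384 ± 9.90 CPM), and the related transporter Slc22a4 1.34-fold. Bbox1, the last enzyme of synthesis, had 1.82 ± 0.419 and 2.93 ± 1.57 CPM, with cKOt replicate 2 highest at 5.63 CPM. Its difference (0.72 ± 0.29, adjusted p = 0.0703) passed only without control replicate 3 (0.86), cKOt replicate 3 (0.82) or cKOt replicate 5 (0.84).

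Of 8 PPAR receptors and coactivators, which sense fatty acids, 1 rose and 2 fell (37.5%). Ppard had 9.91, 6.81, 9.54, 11.3 and 10.8 CPM in controls and 103, 58.3, 78.1, 163 and 129 CPM in cKOt mice. The rise was 9.39-fold (log2 3.23 ± 0.22, edgeR adjusted p = 1.04e-17, departure 0.96 ± 0.23), with a wide spread among cKOt mice, replicate 4 highest and replicate 2 lowest. At ZT12 the log2 difference of Ppard was 3.1. Ppara fell 1.28-fold with overlap (86.8 ± 9.09 to 68.5 ± 11.4 CPM), and missed the threshold in a fit of the ZT8 mice alone (log2 -0.34). Pparg, at 2.60 ± 0.481 and 2.23 ± 0.440 CPM, did not pass (adjusted p = 0.575). Of 22 PPAR target genes, 4 fell and 2 rose (27.3%, beside 19.9% of all tested genes, median log2 -0.17). The peroxisomal enzyme Acaa1b (162 ± 35.0 to 84.6 ± 10.5 CPM) fell 2.00-fold, and the lipid droplet protein Plin2 1.39-fold. Of 19 ketone and TCA cycle enzymes, 3 fell and 2 rose (26.3%).

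**Figure D5:**
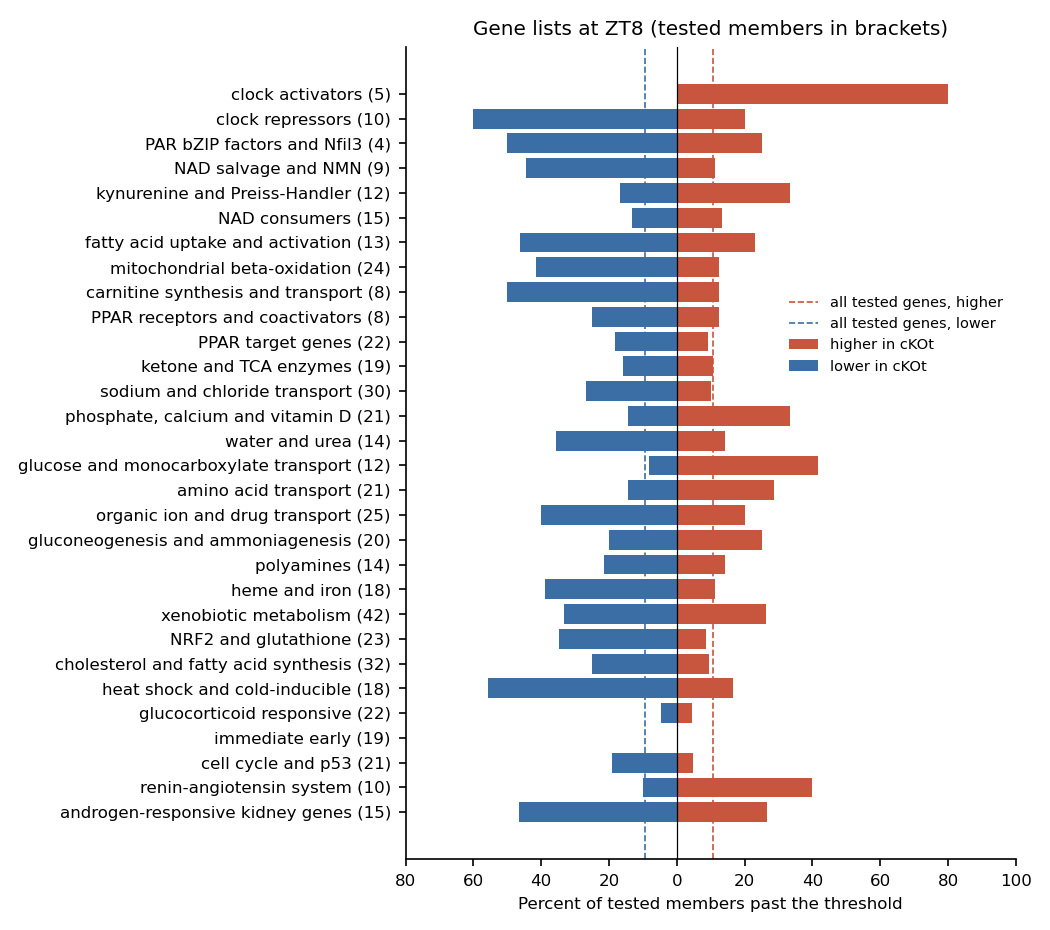
Percent of tested members of 30 gene lists that were lower (blue, to the left) or higher (red, to the right) in cKOt kidneys at ZT8, with the number of tested members in brackets and dashed lines at the percent of all tested genes (9.29% lower, 10.6% higher). The bars reach furthest to the right for clock activators and furthest to the left for clock repressors and the heat shock list, and there are none for immediate early genes.

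Transporters of the tubule changed in both directions. In sodium and chloride transport 8 of 30 fell and 3 rose (36.7%, beside 19.9% of all tested genes). Slc9a3 (NHE3), the sodium-proton exchanger of the proximal tubule, fell 1.29-fold with overlap (237 ± 27.3 to 186 ± 24.0 CPM), while the ENaC subunit Scnn1b rose 1.28-fold (38.1 ± 2.13 to 50.6 ± 8.03 CPM) and the bicarbonate transporter Slc4a9 1.35-fold. In phosphate, calcium and vitamin D handling 7 of 21 rose and 3 fell (47.6%). The phosphate transporter Slc34a3 rose 1.43-fold and the calcium channel Trpv5 1.51-fold (18.5 ± 2.36 to 27.8 ± 1.69 CPM). Cyp27b1, which makes active vitamin D, fell 4.19-fold (2.57 to 6.59 CPM in controls and 0.850 to 1.47 CPM in cKOt mice).

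For water and urea, 5 of 14 fell and 2 rose (50.0%, beside 19.9% of all tested genes). Umod (uromodulin), a product of the thick ascending limb, fell 1.31-fold (2945 ± 182 to 2273 ± 159.6 CPM), the water channel Aqp4 fell 1.98-fold with overlap, and the urea transporter Slc14a2 rose 1.52-fold. In glucose and monocarboxylate transport 5 of 12 rose and 1 fell (50.0%). Slc2a1 (GLUT1) was up 1.41-fold and the lactate transporter Slc5a12 up 1.45-fold (409 ± 31.9 to 569.5 ± 46.8 CPM), beside Slc16a1. Of 21 amino acid transporters 6 rose and 3 fell (42.9%), among the former Slc6a18, for neutral amino acids, by 1.42-fold. Of 25 organic ion and drug transporters 10 fell and 5 rose (60.0%). Slc22a8 (OAT3) fell 1.61-fold (363 ± 49.1 to 228 ± 32.4 CPM) and its relative Slc22a26 2.36-fold, whereas the efflux pump Abcb1b rose 2.54-fold (4.93 ± 0.625 to 12.3 ± 2.41 CPM).

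In gluconeogenesis and ammoniagenesis 5 of 20 rose and 4 fell (45.0%, beside 19.9% of all tested genes). G6pc, the last step of glucose release, rose 1.61-fold with overlap (535 ± 71.0 to 847 ± 161 CPM), and Glul, glutamine synthetase, fell 1.48-fold (522 ± 42.0 to 358 ± 39.8 CPM). Of 14 polyamine genes 3 fell and 2 rose (35.7%). Odc1, the rate-limiting ornithine decarboxylase, fell 2.41-fold (2138 to 3120 CPM in controls and 856 to 1132 CPM in cKOt mice), and Azin1, which protects it from breakdown, fell 1.47-fold (departure -0.25 ± 0.059). Arg2, the mitochondrial arginase, which supplies ornithine, rose 6.60-fold (3.71 to 5.51 CPM in controls and 22.7 to 35.8 CPM in cKOt mice).

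Of 18 heme and iron genes 7 fell and 2 rose (50.0%, beside 19.9% of all tested genes). Besides Alas1, the heme oxygenase Hmox1 (27.9 ± 5.36 to 14.3 ± 1.61 CPM) and the transferrin receptor Tfrc (173 ± 28.9 to 114 ± 9.91 CPM) fell without overlap, and ceruloplasmin (Cp) rose 1.53-fold. Of 42 genes of xenobiotic metabolism 14 fell and 11 rose (59.5%). After Cyp2a5 and Cyp2a4, the glutathione transferase Gsta3 fell 2.65-fold (98.9 ± 10.8 to 37.0 ± 7.57 CPM), while the cytochrome P450 Cyp2d26 rose 1.82-fold. Of 23 NRF2 and glutathione genes 8 fell and 2 rose (43.5%). Catalase (Cat) fell 1.34-fold and oxoprolinase (Oplah), with overlap, 1.63-fold. Ggct, which releases the oxoproline that Oplah opens, rose 2.69-fold (40.4 ± 5.49 to 107 ± 13.7 CPM).

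In cholesterol and fatty acid synthesis 8 of 32 fell and 3 rose (34.4%, beside 19.9% of all tested genes). Insig1, a sterol sensor, was down 1.59-fold. In the heat shock and cold-inducible list 10 of 18 fell and 3 rose (72.2%, median log2 -0.26). All that fell were chaperones or their cofactors, and the RNA-binding proteins Cirbp and Rbm3 were among those that rose. Hsp90aa1 fell 1.66-fold (159 to 269 CPM in controls and 113 to 139 CPM in cKOt mice), and Hsph1 1.66-fold with overlap. None of 19 immediate early genes passed in edgeR, DESeq2 or limma-trend, and 0 had an unadjusted edgeR p under 0.05. Of 22 glucocorticoid-responsive genes 1 fell and 1 rose (9.09%). Hsd11b1, which regenerates active glucocorticoid, fell 4.08-fold (323 ± 63.1 to 77.9 ± 11.5 CPM). Zbtb16 rose 2.79-fold with cKOt replicate 1 far above the others (23.5, 5.47, 8.88, 8.86 and 6.52 CPM), and without that mouse it missed the threshold (log2 1.01, edgeR adjusted p = 0.0552).

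Of 21 cell cycle and p53 genes 4 fell and 1 rose (23.8%, near the 19.9% of all tested genes). Wee1, a kinase that holds back mitosis, fell 2.22-fold (30.7 ± 2.88 to 13.6 ± 1.89 CPM) and cyclin D1 (Ccnd1) 2.19-fold (189.7 ± 28.2 to 89.1 ± 10.2 CPM), while the cell cycle inhibitor Cdkn1a (p21) rose 4.60-fold (3.08 ± 0.921 to 14.7 ± 3.12 CPM). In the renin-angiotensin system 4 of 10 rose and 1 fell (50.0%). Agt, angiotensinogen, rose 2.55-fold (21.1 to 26.7 CPM in controls and 45.4 to 86.5 CPM in cKOt mice).

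Of 15 kidney genes that respond to androgen, 7 fell and 4 rose (73.3%, beside 19.9% of all tested genes). None passed the test of the departure in edgeR, DESeq2 or limma-trend (2 at an unadjusted edgeR p under 0.05). Since 0.386% of all tested genes passed it in edgeR, a count of 0 says little. Cyp4a12a, an androgen-induced fatty acid hydroxylase of male kidney, fell 7.18-fold (119.8 to 276 CPM in controls and 7.49 to 45.1 CPM in cKOt mice). Its near copy Cyp4a12b fell 4.45-fold, and the split of reads between them is uncertain. Srd5a2, a 5α-reductase, fell 5.99-fold (20.8 ± 8.04 to 3.33 ± 0.573 CPM). Prlr, the prolactin receptor, rose 4.98-fold (5.82 ± 2.02 to 28.3 ± 11.6 CPM), as did Hsd17b2, which inactivates sex steroids, by 1.86-fold.

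Some markers of immune cells were lower in cKOt mice. Of 8 markers of macrophages and MHC class II, 3 fell (37.5%, beside 19.9% of all tested genes) and 5 did not pass. The 3 were all of class II (Cd74 log2 -0.44 ± 0.11, H2-Aa -0.32 ± 0.11 and H2-Ab1 -0.36 ± 0.12), with overlap. The summed level of the 8 markers was 258 to 366 CPM in controls and 203 to 306 CPM in cKOt mice. H2-Aa and H2-Ab1 missed the threshold without any 1 of cKOt replicates 1, 2 and 4 and control replicates 1, 2 and 4 (H2-Aa -0.30 to -0.25, H2-Ab1 -0.34 to -0.28), and H2-Aa also without control replicate 3 (-0.31). Within batch 2, Cd74 and H2-Ab1 were higher in the cKOt mouse (log2 0.23 and 0.11).

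Of 3 tested B cell markers, Jchain (log2 -1.22 ± 0.36) and Igkc (-1.13 ± 0.37) were lower with overlap (66.7%, beside 19.9% of all tested genes). Both are chains found in plasma cell antibodies. The sum over the B cell markers was 109 to 332 CPM in controls and 37.9 to 114 CPM in cKOt mice. Control replicate 1 was highest for Jchain and Igkc, at 119.8 and 211 CPM, and without it neither passed (-0.83 and -0.78). Igkc also missed the threshold without cKOt replicate 1 (-1.07), 2 (-1.06) or 4 (-1.005). The part of these markers in the other results was not tested.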

How the data were processed

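RNA from the kidneys of 10 mice at ZT8 was set against that of the 60 mice of the series. The deposited values are raw counts of single reads per gene. Per the labels and the submitters' processing notes, the authors made stranded mRNA libraries (150 cycles), trimmed reads with cutadapt 1.8, aligned them to GRCm38 with STAR 2.5.3a and counted them with HTSeq 0.9.1. The annotation release is not given in the sources used here. Rows for reads on no feature (7.82% to 10.4%) or ambiguous (1.04% to 1.22%) were left out of library sizes and tests. Gene names came from the reference table for 15538 of 15546 tested genes. The study sampled 6 mice per group and kept 5. Its criteria were RNA integrity and distance from the other replicates in plots of sample similarity, so that outliers could be removed. Such a choice can narrow the spread within groups, and its part in the tests and in the counts without overlap was not tested. The other mice were not analysed here.

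Genes reaching 1 CPM in any of 60 samples were fitted in edgeR 4.0.16 (quasi-likelihood test, R 4.3.3) with 12 groups, TMM scaling and 2 factors of unwanted variation, estimated from replicates by the RUVs method as re-implemented here. The contrasts were cKOt minus control at ZT8, and that difference minus the mean of the other 5 time points. Benjamini-Hochberg adjusted p under 0.05 was the threshold. Printed CPM are TMM-scaled without these factors, so a mean ratio can differ from the fitted fold. On simulated counts for 15059 genes the ZT8 test called 100 of 100 genes changed by a log2 of 1.5, 51 of 100 changed by 0.6, and 6 of 14859 unchanged ones. The changed genes were drawn from the more abundant ones, all genes had the same spread, and genotypes did not differ at other time points. These rates need not hold for genes with few reads or a wide spread. Alternatives used DESeq2 1.42.0, limma 3.58.1, other filters, scaling and factors, batch in place of the factors, the ZT8 mice alone, and each mouse left out. Batches came from the study's supplementary table: the 10 mice fall in 6, of which 3 hold both genotypes. Within-batch log2 ratios used a pseudocount of 0.5 CPM.

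Named genes are those of the 3 clock lists, those the study names in NAD, fatty acid, carnitine and PPAR metabolism, the 10 largest changes per direction (mean of at least 1 CPM, no overlap), the 5 largest departures per direction, and up to 3 genes per direction from each of 30 lists. 17 marker lists describe cell types and injury, and 2 more (liver-secreted, fibrinogen chains) were added after seeing the data. Members, lists and rules were chosen with earlier results of these data known. Of 186 genes that the rule names, 68 are given without values, mostly list members, and a few genes are not reported here. Some of these were left out because their calls changed between alternatives or their differences were near 0.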

Additional observations from a re-analysis of the deposited data

Results flagged for a closer look

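The difference between genotypes at ZT8 departed from the mean of the other 5 time points in 20 of the genes named in the text, by the edgeR test of the departure itself. Among all tested genes 0.386% passed. The 5 largest departures per direction were named for that reason, so the count of 20 is in part built in. On the log2 scale the departure was positive for Npas2 (2.60), Arntl (2.48), Nfil3 (1.82), Pdk4 (1.58), Gm30162 (1.44), Slc16a1 (1.28), Ppard (0.96), Loxl4 (0.79), Avpr1a (0.78), Acsl1 (0.63) and Cry1 (0.61). It was negative for Dbp (-0.96), Zfp57 (-0.76), Per3 (-0.72), Coq10b (-0.69), Nat8f4 (-0.68), Alas1 (-0.67), Tef (-0.44), Fabp3 (-0.37) and Azin1 (-0.25).

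Single mice lay far from the other 4 of their group in 21 of 252 groups of 5 mice, one group per gene and genotype. About 1 group in 20 would be picked out by chance among mice not screened for outliers, but the study had screened these. The mouse was the highest of its group for Arntl in control replicate 1 (4.17 CPM), Rora in cKOt replicate 2 (99.5 CPM), Per1 in control replicate 3 (47.2 CPM), Bbox1 in control replicate 3 (2.54 CPM), Synpr in cKOt replicate 4 (2.70 CPM), Gm45909 in cKOt replicate 2 (0.797 CPM) and Vmn1r32 in control replicate 2 (0.0541 CPM). It was also the highest for Slc7a12 in control replicate 2 (3.51 CPM), Umod in control replicate 4 (3266 CPM), Slc5a12 in cKOt replicate 2 (652 CPM), Slc16a1 in cKOt replicate 2 (193 CPM), Zbtb16 in cKOt replicate 1 (23.5 CPM), Prlr in control replicate 2 (9.40 CPM), Havcr1 in control replicate 2 (4.00 CPM) and Igkc in control replicate 1 (211 CPM). The mouse was the lowest for Cpt1a in cKOt replicate 3 (449 CPM), Acadl in control replicate 2 (382 CPM), Zfp57 in control replicate 1 (2.96 CPM), Coq10b in cKOt replicate 4 (20.0 CPM), Glul in cKOt replicate 2 (289.7 CPM) and H2-Aa in control replicate 5 (55.5 CPM). cKOt replicate 2 and control replicate 2 were each picked out 5 times and control replicate 1 3 times. The value of Vmn1r32 is the single read in controls.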

How the results depend on the processing

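Of the 3095 genes at ZT8, those shared with each alternative kept their sign in all of them. Since all fits drew on the same mice, this is no separate check. The count was 2834 to 3163 with 1 factor of unwanted variation, the DESeq2 Wald test, its size factors, limma-trend or another filter on low counts, and 2560 without a filter. It was 2013 without the factors of unwanted variation, 1991 with batch in their place and 1497 with only the ZT8 mice. Leaving out 1 mouse gave 2509 (without cKOt replicate 2) to 3021 genes. Replicate numbers did not pair the mice (correlations of deviations of -0.17 to 0.11, 1 of 5 over 0.1). The replicate block gave 3106 genes and 61 departures, and Per1 passed with it (-0.57, edgeR adjusted p = 0.0476). With batch in place of the factors, a choice made after seeing the data, the replicate block gave 1968 and 23.

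The 60 departures became 53 to 74 under the alternatives with a factor of unwanted variation, 34 without factors and 29 with batch. They were 39 to 68 with 1 mouse left out, lowest without control replicate 5, and 39 without cKOt replicates 2 and 4 together, also chosen after seeing the data. The cause of these shifts was not tested.

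Among the 114 genes in the text that passed the test at ZT8, 4 changed sign between mice of 1 batch: Acads (0.12), Cd74 (0.23) and H2-Ab1 (0.11) within batch 2, and Pdk4 (-0.57) within batch 3. The other 110 kept their sign in all 3 batches. The calls came from the same mice, so this is no separate check. Bhlhe40, Havcr1 and the immune markers missed the threshold in several alternatives. Genes at under about 1 CPM rest on few reads per mouse.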
